A study of Oryza sativa with 6 samples.

Results

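The plasma membrane intrinsic proteins (PIPs) of rice were followed at the transcript level in flag leaves. The 10 genes named PIP1-1 to PIP1-3 and PIP2-1 to PIP2-7 were taken by their RAP identifiers from the 91180 features of the count and FPKM tables, and all 10 identifiers were found. Membership was set by gene name and not by a measured value, but the list was chosen with earlier results of these data known. The study compared OsRUS1-OX with WT, with 3 libraries per genotype, to look for transcripts that differ between rolled and expanded leaves. OsRUS1-OX was 1 transgenic line in the ZhongHua11 (ZH-11) background that overexpresses OsRUS1 fused to GFP, and WT was ZhongHua11 itself. The promoter of the transgene is not given in the sources used here. All plants were grown in the field, and flag leaves of 3 plants per library were pooled at the heading stage at 11 h in summer sunlight. At that hour the OsRUS1-OX leaves were rolled and the WT leaves were expanded, so genotype and leaf state cannot be told apart in any difference given here.

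PIPs are membrane proteins of the aquaporin family that assemble as tetramers, each subunit with its own pore, and carry water across the plasma membrane. Some also carry small uncharged solutes such as hydrogen peroxide, carbon dioxide or arsenite. PIP2 proteins generally give high water permeability when expressed alone in frog oocytes, whereas many PIP1 proteins do little alone and, as shown for maize, need a PIP2 partner to reach the plasma membrane. In leaves, PIPs are known from mesophyll, from the cells around the veins and from other cells through which water moves.

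The reads counted on genes numbered 11918655 to 13532579 per OsRUS1-OX library and 8759812 to 11744177 per WT library, at which 3 reads correspond to 0.222 to 0.342 CPM (counts scaled to the library total, with no gene length). This limit covers counting error only. OS04G0290800 averaged 5343 ± 1673 normalized counts in OsRUS1-OX and 105 ± 23 in WT (SD, n = 3 each). The gene table of the study describes it with vitamin B6 photo-protection, a process tied to RUS genes. The paper cites that table for its differentially expressed genes. A gene taken from it differs between these libraries by selection, so the values are no independent check of the labels. Whether this identifier is OsRUS1 itself is not given in the tables used here. Levels are given as FPKM, the authors' fragment counts divided by gene length and library total, which allow a comparison between genes because they are set per length. Fold changes come from edgeR's quasi-likelihood test on the read counts, with p-values adjusted over the 19694 features that passed edgeR's filter on low counts, and a gene was called when its adjusted p was below 0.05. RNA came from whole leaf tissue, in which a change in the number of cells of a type and a change in RNA per cell cannot be told apart.

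Of the 10 PIP genes, 8 passed the filter. In OsRUS1-OX, PIP1-1, PIP1-2 and PIP2-6 rose, PIP1-3 and PIP2-4 fell, and PIP2-1, PIP2-2 and PIP2-7 did not pass the threshold. PIP2-3 and PIP2-5 had at most 5 reads in any library and were not tested. For comparison, 23.6% of all tested features were called, 11.8% as higher and 11.8% as lower in OsRUS1-OX. The normalized counts (reads divided by the TMM-scaled library size) of 6 of the 8 genes did not overlap between the genotypes, 4 higher and 2 lower in OsRUS1-OX, whereas 42.5% of all tested features showed no overlap. The median log2 fold change was 0.35 over the 8 PIP genes and -0.01 over all tested features. Without regard to sign, the corresponding medians were 1.14 and 0.34. The PIP genes therefore moved in both directions, and the size of the changes ranged from the 32.2 percentile of all tested features for PIP2-1 to the 97.1 percentile for PIP2-6.

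**Figure D1:**
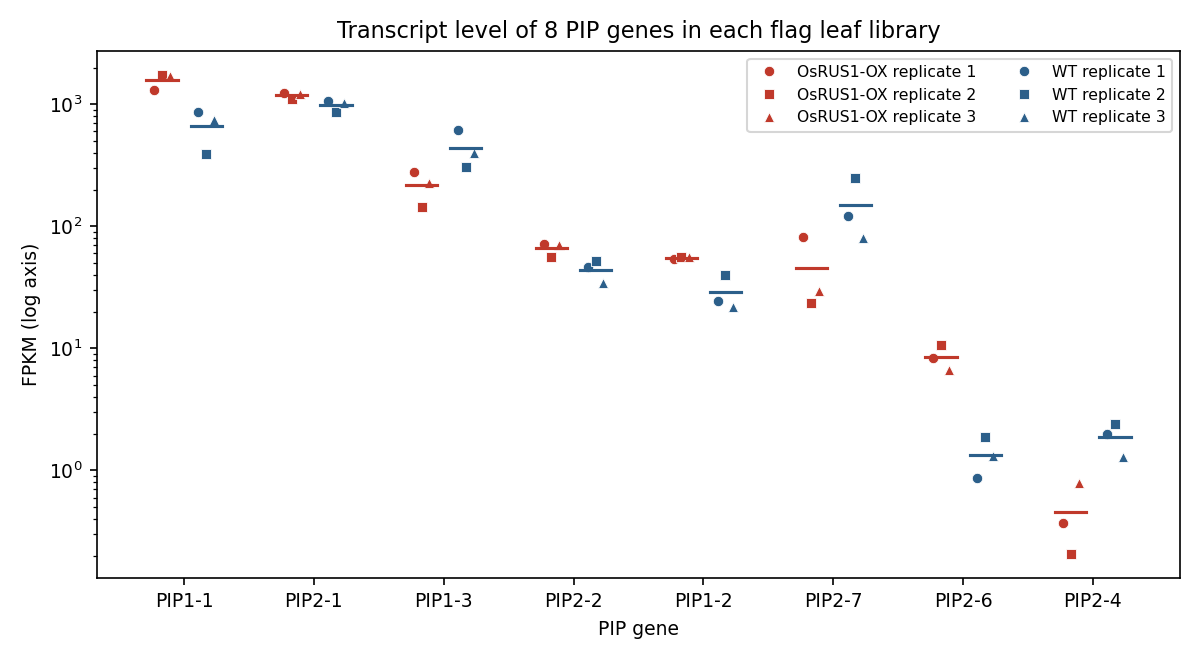
Transcript level (FPKM, log axis) of the 8 PIP genes that passed the filter, in order of their OsRUS1-OX mean. Points are single libraries, OsRUS1-OX left (red) and WT right (blue), with a marker shape per replicate number, and bars are the means of 3 libraries. The 3 OsRUS1-OX points lie above all WT points for PIP1-1, PIP2-1, PIP2-2, PIP1-2 and PIP2-6 and below them for PIP1-3 and PIP2-4, and for PIP2-7 the genotypes overlap.

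The PIP1 genes were called in different directions. PIP1-1 (OS02G0666200, chromosome 2), also known as RWC1, encodes a PIP1 protein whose water transport in oocytes increases when a PIP2 protein is present. It had 1304, 1748 and 1707 FPKM in the 3 OsRUS1-OX libraries, against 867, 393 and 744 FPKM in the 3 WT libraries. Every OsRUS1-OX library lay above every WT library, and WT replicate 2 had the lowest value. PIP1-1 was 2.27-fold higher in OsRUS1-OX (log2 fold change 1.18, SE 0.29, adjusted p = 0.022, edgeR's quasi-likelihood test). By mean FPKM it ranked 51st among all features in OsRUS1-OX and 131st in WT. The call did not hold without OsRUS1-OX replicate 2 (edgeR's adjusted p = 0.073) or without OsRUS1-OX replicate 3 (edgeR's adjusted p = 0.076). With limma on log2(FPKM + 1) over all features the adjusted p was 0.065.

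PIP1-3 (OS02G0823100, chromosome 2), also known as RWC3 and described in rice for its response to water deficit, went the other way. Its level was 276, 144 and 228 FPKM in OsRUS1-OX, against 613, 309 and 402 FPKM in WT. The groups did not overlap, although the highest OsRUS1-OX library and the lowest WT library were only 276 and 309 FPKM. PIP1-3 was 2.15-fold lower in OsRUS1-OX (log2 fold change -1.10, SE 0.31, adjusted p = 0.037, edgeR's quasi-likelihood test). In fits that left out 1 library the log2 fold change stayed between -1.30 and -0.77, but edgeR's adjusted p was 0.11 without OsRUS1-OX replicate 2, 0.10 without OsRUS1-OX replicate 3, 0.093 without WT replicate 1 and 0.053 without WT replicate 3. With limma on log2(FPKM + 1) or log2(FPKM + 0.1) in place of edgeR the adjusted p was 0.069 or 0.073, and over all features 0.12.

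PIP1-2 (OS04G0559700, chromosome 4), a PIP1 protein tied to carbon dioxide transport in rice leaves, was a minor PIP1 transcript. It had 53.7, 55.6 and 56.6 FPKM in OsRUS1-OX, against 24.5, 39.8 and 22.0 FPKM in WT. The 3 OsRUS1-OX libraries were nearly equal, with a coefficient of variation of 2.54%. That of the WT libraries was 36.1%, with replicate 2 highest. Here and below, this coefficient is the SD over the mean of the normalized counts. PIP1-2 was 1.82-fold higher in OsRUS1-OX (log2 fold change 0.86, SE 0.23, adjusted p = 0.03, edgeR's quasi-likelihood test). Without WT replicate 2 the log2 fold change was 1.20 (edgeR's adjusted p = 0.002). The call was lost without OsRUS1-OX replicate 2 or 3 and without WT replicate 1 or 3, with adjusted p between 0.066 and 0.094 in edgeR's test. It was also lost where the log2 fold change had to reach 1.

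The balance between both major PIP1 transcripts was read within each library. PIP1-1 was 4.72, 12.1 and 7.48 times as abundant as PIP1-3 by FPKM in the OsRUS1-OX libraries, against 1.41, 1.27 and 1.85 times in the WT libraries. This ratio needs no scaling between libraries. Its lowest OsRUS1-OX value was above its highest WT value, which follows from the separation of both genes given above and adds no further support. The ratio was formed after the direction of both genes was known and is given without a test.

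**Figure D2:**
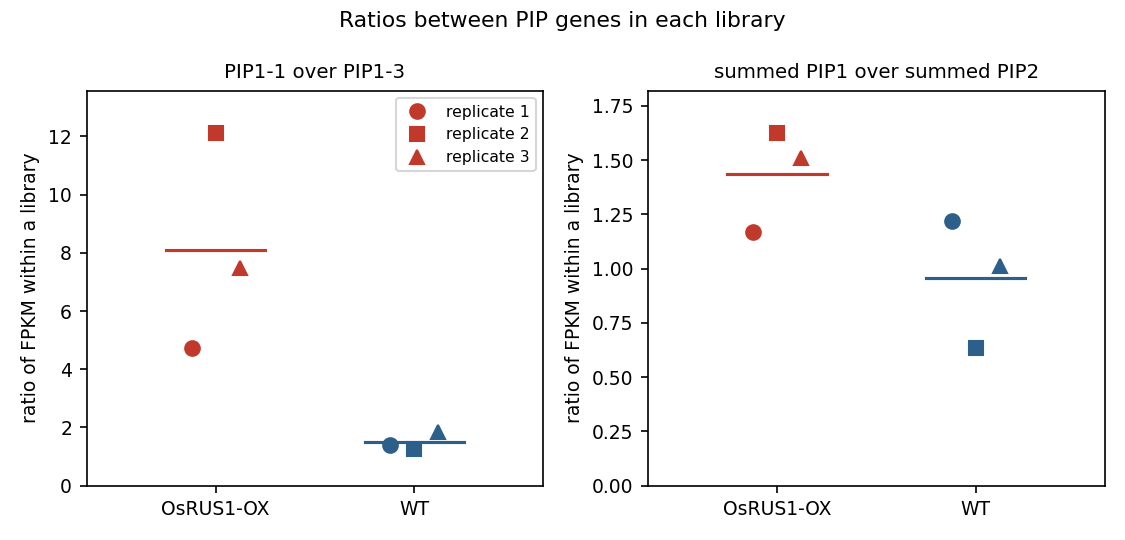
Ratios of FPKM within each library, OsRUS1-OX left (red) and WT right (blue), with bars at the mean of 3 libraries and a marker shape per replicate number. The ratio of PIP1-1 to PIP1-3 was 4.72 to 12.1 in OsRUS1-OX and 1.27 to 1.85 in WT, and the ratio of summed PIP1 to summed PIP2 overlapped between the genotypes.

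Among the PIP2 genes, PIP2-1 (OS07G0448800, chromosome 7), a water channel with high permeability that is also studied in rice roots, made up most of the transcript. It had 1236, 1107 and 1213 FPKM in OsRUS1-OX, against 1063, 859 and 1035 FPKM in WT. The FPKM values did not overlap, but the normalized counts did, with 9648 in OsRUS1-OX replicate 2 and 9874 in WT replicate 1. The log2 fold change was 0.20 with an SE of 0.14 (adjusted p = 0.35, edgeR's quasi-likelihood test), and in fits without 1 library it ranged from 0.12 to 0.27 and was never called. The coefficient of variation of PIP2-1 was 5.05% in OsRUS1-OX and 10.7% in WT, below the medians over all tested features, which were 11.8% and 18.5%.

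PIP2-2 (OS02G0629200, chromosome 2), also a water-permeable PIP2 protein, had 71.1, 56.4 and 70.2 FPKM in OsRUS1-OX, against 46.3, 52.1 and 34.5 FPKM in WT. The groups stood apart by a narrow margin, with normalized counts of 597 in the lowest OsRUS1-OX library and 587 in the highest WT library. The log2 fold change of 0.49 (SE 0.19) had an adjusted p of 0.10 in edgeR's quasi-likelihood test. It was called without WT replicate 2 (log2 fold change 0.65, edgeR's adjusted p = 0.045) and with scaling by library totals alone (edgeR's adjusted p = 0.050 after rounding).

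PIP2-6 (OS04G0233400, chromosome 4), one of the rice PIPs that carry arsenite when expressed in oocytes, changed most among the tested members. It had 8.40, 10.7 and 6.66 FPKM in OsRUS1-OX, against 0.866, 1.87 and 1.32 FPKM in WT. These levels rested on 133, 151 and 107 reads in OsRUS1-OX, against 9, 26 and 17 reads in WT. The lowest OsRUS1-OX library thus had over 3 times the FPKM of the highest WT library. PIP2-6 was 5.91-fold higher in OsRUS1-OX (log2 fold change 2.56, SE 0.32, adjusted p = 0.0017, edgeR's quasi-likelihood test). It was called in each of the 6 fits that left out 1 library, with log2 fold changes of 2.36 to 2.89.

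PIP2-4 (OS07G0448100, chromosome 7), which also carries arsenite in oocytes, was the other PIP2 gene past the threshold and was rare. Its counts were 6, 3 and 13 reads in OsRUS1-OX, against 21, 34 and 17 reads in WT. The libraries of the genotypes did not overlap, and the FPKM was at most 0.791 in OsRUS1-OX and at least 1.29 in WT. PIP2-4 was 4.25-fold lower in OsRUS1-OX (log2 fold change -2.09, SE 0.49, adjusted p = 0.020, edgeR's quasi-likelihood test). The log2 fold change was -2.72 without OsRUS1-OX replicate 3 and -0.99 with limma on log2(FPKM + 1), a scale that understates the change of such low levels. The call was lost without OsRUS1-OX replicate 1 (edgeR's adjusted p = 0.060), OsRUS1-OX replicate 2 (0.066) or WT replicate 1 (0.053), and with limma on log2(FPKM + 0.1) the adjusted p was 0.051. In the RefSeq annotation PIP2-4, PIP2-5 and PIP2-1 lie next to each other on chromosome 7, with 1 gene between PIP2-4 and PIP2-5 and 0 between PIP2-5 and PIP2-1. The FPKM values rest on reads that mapped to a single place, and whether any of the few reads of PIP2-4 and PIP2-5 belong to PIP2-1, with its 7011 to 12423 reads, was not tested.

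PIP2-7 (OS09G0541000, chromosome 9), known in rice as a leaf blade aquaporin with a role under chilling, had the largest coefficient of variation of the 8 tested PIP genes in both genotypes. It had 82.4, 23.6 and 29.8 FPKM in OsRUS1-OX, against 122, 250 and 80.7 FPKM in WT. OsRUS1-OX replicate 1 and WT replicate 3 overlapped, while WT replicate 2 was the highest of the 6 libraries. The coefficient of variation was 71.4% in OsRUS1-OX and 60.8% in WT, at the 98.6 and 95.0 percentiles of all tested features. The log2 fold change was -1.82 (SE 0.57, adjusted p = 0.051, edgeR's quasi-likelihood test). It was -2.56 without OsRUS1-OX replicate 1 (edgeR's adjusted p = 0.012) and -1.22 without WT replicate 2 (edgeR's adjusted p = 0.13), and without WT replicate 3 edgeR's adjusted p was 0.036. Without the filter on low counts edgeR's adjusted p was 0.018.

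PIP2-3 (OS04G0521100, chromosome 4) and PIP2-5 (OS07G0448200, chromosome 7), which in rice are known as root aquaporins, were close to the limit of detection. PIP2-3 had 2, 5 and 1 reads in OsRUS1-OX and 0 reads in each WT library. PIP2-5 had 1, 0 and 1 reads in OsRUS1-OX, against 1, 0 and 0 reads in WT. No fold change is given for either gene, because the mean count of both genotypes was under 3 reads.

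**Figure D3:**
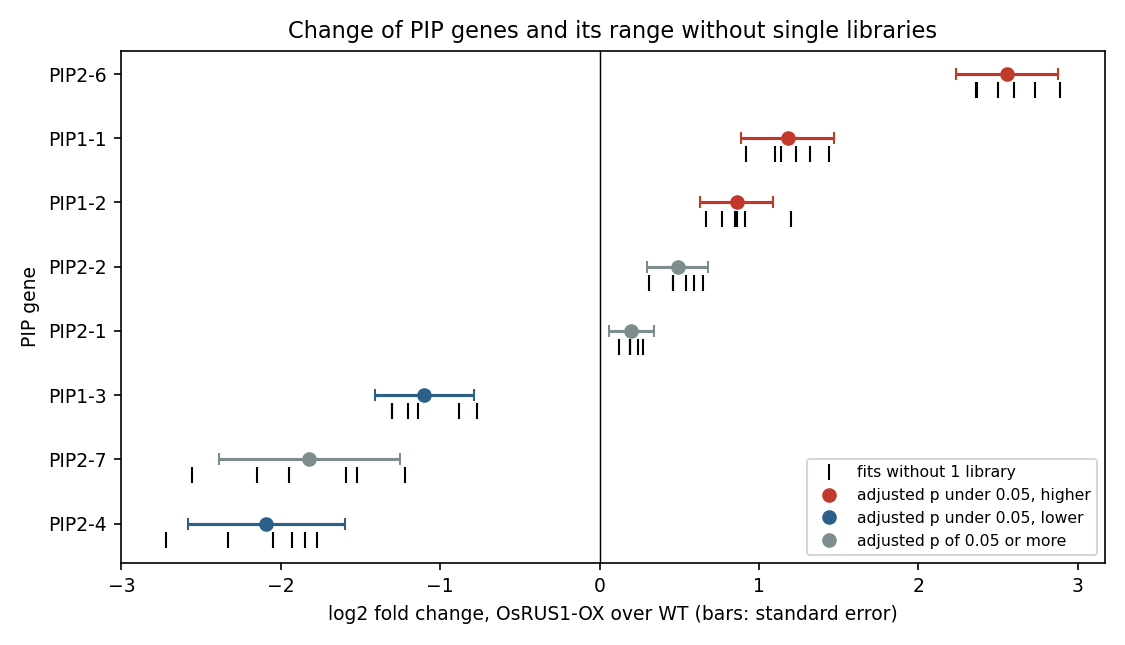
Log2 fold change of the 8 tested PIP genes, OsRUS1-OX over WT (horizontal axis). Bars are standard errors derived from the F statistic of edgeR's test, and a tick marks each of the 6 fits without 1 library. Red marks genes called higher in OsRUS1-OX, blue those called lower and grey those not called. PIP2-6 (2.56) and PIP2-4 (-2.09) lie farthest from 0, and no tick of any gene crosses 0.

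The summed FPKM of the 10 PIP genes described the whole PIP transcript pool. It was 3033, 3147 and 3313 in OsRUS1-OX, against 2738, 1907 and 2321 in WT. All 3 OsRUS1-OX sums lay above all WT sums, and the WT sums were more spread, with replicate 2 lowest. The mean sum was 1.36 times as high in OsRUS1-OX, a log2 ratio of 0.45 where the SD between replicates on that scale was 0.19. Without WT replicate 2 the log2 ratio was 0.32. Of all reads on genes, 0.305% to 0.339% fell on PIP genes in OsRUS1-OX and 0.190% to 0.284% in WT.

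The higher sum lay in the PIP1 group. The 3 PIP1 genes together had 1635, 1948 and 1992 FPKM in OsRUS1-OX, against 1504, 741 and 1168 FPKM in WT, a ratio of means of 1.63. The 7 PIP2 genes together had 1399, 1199 and 1321 FPKM in OsRUS1-OX, against 1234, 1166 and 1153 FPKM in WT. The PIP2 sums overlapped between the genotypes, with a ratio of means of 1.10. When PIP1-1 alone was left out, the sum of the other 9 PIP genes averaged 1578 ± 167 FPKM in OsRUS1-OX and 1654 ± 191 FPKM in WT (SD, n = 3 each). The ratio of PIP1 to PIP2 sums was 1.17, 1.63 and 1.51 in OsRUS1-OX, against 1.22, 0.636 and 1.01 in WT. OsRUS1-OX replicate 1 thus fell just below WT replicate 1. The sums and this ratio depend on the gene lengths behind the FPKM values.

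The composition of the pool differed as well. PIP1-1 made up 43.0%, 55.6% and 51.5% of the summed FPKM in OsRUS1-OX, against 31.7%, 20.6% and 32.1% in WT. The share of PIP1-3 was 9.11%, 4.58% and 6.89% in OsRUS1-OX, against 22.4%, 16.2% and 17.3% in WT. Neither share overlapped between the genotypes. PIP2-1 held 40.8%, 35.2% and 36.6% in OsRUS1-OX, against 38.8%, 45.1% and 44.6% in WT, with the highest OsRUS1-OX share above the lowest WT share. PIP2-7 held 0.751% to 2.72% in OsRUS1-OX, against 4.45%, 13.1% and 3.48% in WT, without overlap and with WT replicate 2 highest. Together, PIP1-1, PIP1-3 and PIP2-1 gave 92.9% to 95.3% of the pool in OsRUS1-OX and 81.9% to 94.0% in WT, where the lowest value was that of replicate 2. A share can fall because another member rose, so the shares describe the mixture and not the change of a single gene. The shares also depend on the gene lengths behind the FPKM values. That of PIP2-1 works out at 753 bases, against 1170 for PIP1-1. By CPM, PIP2-1 averaged 742 in WT and PIP1-1 averaged 781, whereas by FPKM PIP2-1 was the higher there.

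**Figure D4:**
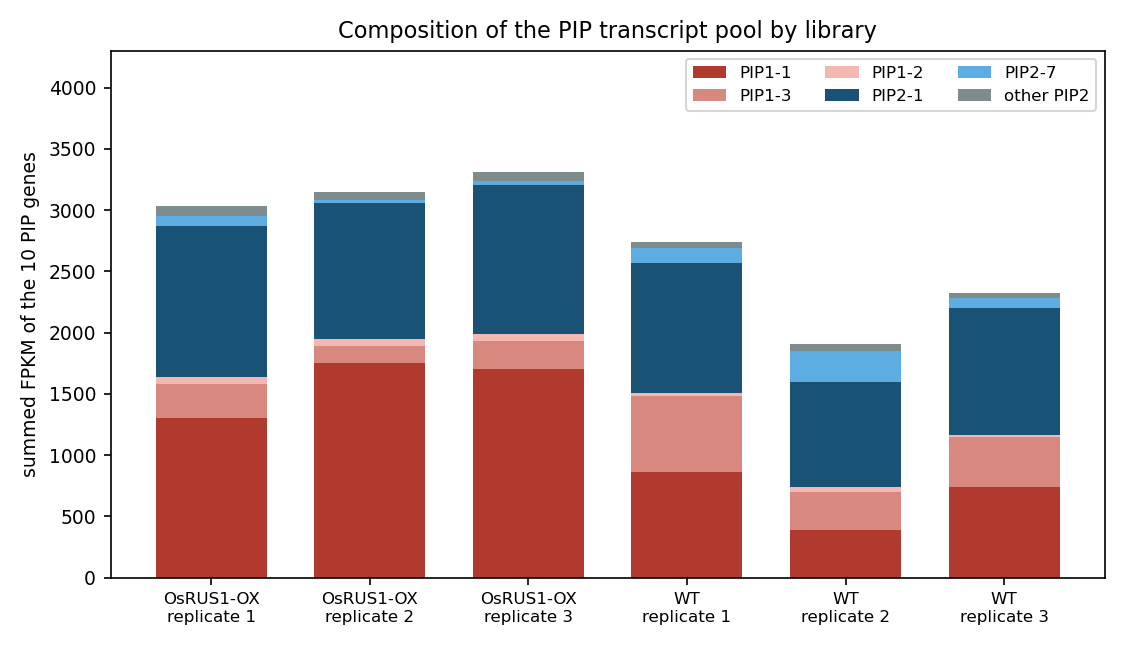
Summed FPKM of the 10 PIP genes in each library, OsRUS1-OX replicates left and WT replicates right, stacked by gene. PIP1-1 (darkest red) takes 43.0% to 55.6% of each OsRUS1-OX bar and 20.6% to 32.1% of each WT bar, while PIP2-1 (dark blue) spans 1107 to 1236 FPKM in OsRUS1-OX and 859 to 1063 FPKM in WT.

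The order of the levels by mean FPKM differed between the genotypes at several places. In OsRUS1-OX, PIP1-1 (1587 ± 245) came before PIP2-1 (1186 ± 68.7) and PIP1-3 (216 ± 66.9), and these 3 levels did not overlap. PIP2-2 (65.9 ± 8.23), PIP1-2 (55.3 ± 1.46) and PIP2-7 (45.3 ± 32.3) followed, and neighbours among these 3 overlapped. PIP2-6 (8.58 ± 2.01) stood apart below them, and PIP2-4, PIP2-3 and PIP2-5 were each under 1 FPKM in every library. All errors are SDs with n = 3 libraries.

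In WT, PIP2-1 (986 ± 110 FPKM) came first, and it overlapped with PIP1-1 (668 ± 246), which in turn overlapped with PIP1-3 (441 ± 156). PIP2-7 (151 ± 88.2) came next and did not overlap with its neighbours on either side. PIP2-2 (44.3 ± 9.0) and PIP1-2 (28.7 ± 9.62) overlapped with each other, as did PIP2-4 (1.88 ± 0.551) and PIP2-6 (1.35 ± 0.500). PIP2-6 thus stood 7th in OsRUS1-OX and 8th in WT, and PIP2-7 stood 6th in OsRUS1-OX and 4th in WT. The order of PIP1-1 and PIP2-1 in WT depended on the gene lengths behind the FPKM values, which work out at 1170 and 753 bases. By CPM, PIP1-1 had 781 ± 288 and PIP2-1 had 742 ± 83.1 in WT (SD, n = 3 each).

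WT replicate 2 stood apart from the other WT libraries across the family. Among the 3 WT libraries it had the lowest FPKM of PIP1-1, PIP1-3 and PIP2-1 and the highest FPKM of PIP1-2, PIP2-2, PIP2-4, PIP2-6 and PIP2-7. Without it, 6 PIP genes were called in place of 5. OsRUS1-OX replicate 1 was the OsRUS1-OX library nearest to the WT levels for PIP1-1, PIP1-3 and PIP2-7. Without it 5 PIP genes were called, PIP2-7 among them, but PIP2-4 was not.

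The other branches of the aquaporin family gave a frame for the PIPs: tonoplast intrinsic proteins (TIPs) of the vacuole membrane, NOD26-like proteins (NIPs), small basic proteins (SIPs) and PIP2-8. Of 22 listed genes, 11 passed the filter, 2 rose and 1 fell in OsRUS1-OX, and the median log2 fold change of those tested was 0.30. The called genes were 27.3% of those tested, close to the 23.6% of all tested features that were called. PIP2-8 had no read in any library. Among 5 tested TIPs, TIP2-2 (OS06G0336200) and TIP1-1 (OS03G0146100), both water channels of the vacuole, rose. TIP2-2 had 365, 625 and 597 FPKM in OsRUS1-OX, against 222, 136 and 193 FPKM in WT, without overlap (log2 fold change 1.46, SE 0.26, adjusted p = 0.0062, edgeR's quasi-likelihood test). TIP1-1 had a log2 fold change of 0.78 (SE 0.19, edgeR's adjusted p = 0.021), with 129, 172 and 157 FPKM in OsRUS1-OX, against 78.3, 66.5 and 112 FPKM in WT. The call of TIP1-1 was lost without OsRUS1-OX replicate 2 (edgeR's adjusted p = 0.079), OsRUS1-OX replicate 3 (0.076) or WT replicate 1 (0.068), whereas TIP2-2 was called in all 6 fits without 1 library.

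None of the 4 tested NIPs passed the threshold in edgeR's test, and their log2 fold changes lay between -0.01 and 0.50. Of them 1, NIP2-1, had an unadjusted p under 0.05 in that test (0.039), and DESeq2 and limma called 0 of the 4. The normalized counts of NIP2-1 did not overlap, and edgeR called it without WT replicate 1 (log2 fold change 0.75, adjusted p = 0.023). NIP1-3 is not among the 4, because its listed identifier was dropped over a conflict of names. OS05G0205050, which the study names NIP1-3, was called higher by edgeR (log2 fold change 1.40, adjusted p = 0.039). So was the dropped OS05G0205000 (1.41, adjusted p = 0.016). Both calls were lost in some fits without 1 library, given under other observations. Of the SIPs, which in Arabidopsis reside in the endoplasmic reticulum, SIP1-1 (OS01G0182200) fell in edgeR's test. SIP2-1, whose normalized counts did not overlap, had a log2 fold change of -0.69 (edgeR's adjusted p = 0.054, DESeq2's adjusted p = 0.039, and 0.046 in edgeR's test without OsRUS1-OX replicate 1). SIP1-1 had 48.4, 45.6 and 49.2 FPKM in OsRUS1-OX, against 62.9, 71.2 and 80.5 FPKM in WT, without overlap (log2 fold change -0.65, SE 0.11, adjusted p = 0.0057, edgeR's quasi-likelihood test). The TIP sum averaged 3888 ± 224 FPKM in OsRUS1-OX and 2104 ± 582 FPKM in WT (SD, n = 3 each), a ratio of 1.85 beside that of 1.36 for the PIPs. Most of the TIP sum was TIP1-2 (OS01G0975900), with 3202 ± 376 FPKM in OsRUS1-OX and 1832 ± 625 FPKM in WT (SD, n = 3 each). TIP1-2 did not overlap between the genotypes and was not called by edgeR (log2 fold change 0.72, SE 0.29, adjusted p = 0.11), though it was by DESeq2 (adjusted p = 0.040). Whether the PIPs differed from the other branches was not tested.

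**Figure D5:**
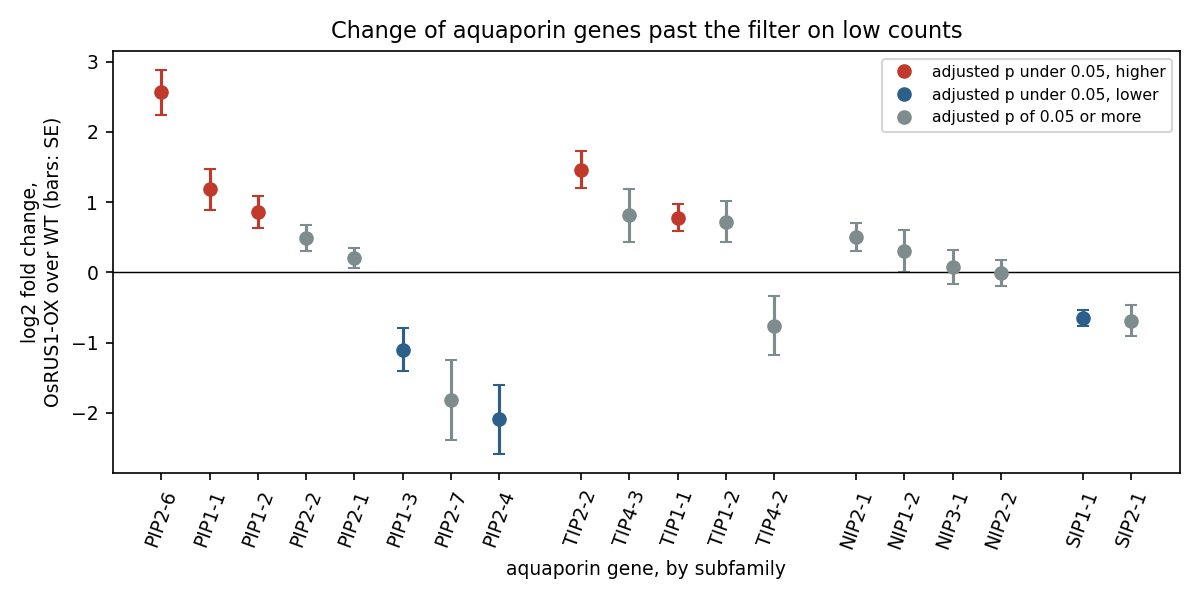
Log2 fold change, OsRUS1-OX over WT, of the aquaporin genes that passed the filter on low counts, grouped as PIP, TIP, NIP and SIP, with the standard error as bars. Red and blue mark genes called higher and lower in OsRUS1-OX, grey the others. Genes called in both directions appear among the 8 PIPs, whereas 2 of 5 TIPs were called higher, 0 of 4 NIPs were called and 1 of 2 SIPs was called lower. The 4 NIPs do not include OS05G0205050 and OS05G0205000, which lie outside the list and were both called higher.

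Markers of leaf cell types were read beside the PIP genes. The 6 photosynthetic markers (genes of the Rubisco small subunit and of chlorophyll a/b binding proteins) summed to 12208 to 15020 FPKM in OsRUS1-OX and 9829 to 13127 FPKM in WT, with none at 0. CAB1R and CAB2R, the chlorophyll a/b binding protein genes, made up most of the sum. In edgeR's test, 3 Rubisco genes were called lower (log2 fold changes -1.08, -1.86 and -1.17) and 1 gene, CAB2R, was called higher (1.03). CAB1R and the remaining Rubisco gene were not called. The FPKM values rest on reads that mapped to a single place, and whether the Rubisco genes lost reads for that reason was not tested. Of all tested features, 23.6% were called. The phloem marker SUT1, a sucrose transporter, ranged from 135 to 208 FPKM in OsRUS1-OX and from 28.1 to 90.6 FPKM in WT and rose (log2 fold change 1.60, SE 0.40, adjusted p = 0.023, edgeR's quasi-likelihood test). It was called in 3 of the 6 fits without 1 library and not without OsRUS1-OX replicate 2, OsRUS1-OX replicate 3 or WT replicate 3, with an adjusted p of at most 0.074 in edgeR's test. The guard cell marker SLAC1, an anion channel, had 28.0 to 39.8 FPKM in OsRUS1-OX and 12.8 to 27.6 FPKM in WT (edgeR's adjusted p = 0.12). The 3 secondary-wall cellulose synthase genes summed to under 1 FPKM in every library, with 1 of them at 0. The root marker Lsi2 had no read, and Lsi1 (NIP2-1), a silicon channel, had 30.8 to 33.2 FPKM in OsRUS1-OX and 16.5 to 27.8 FPKM in WT. The part of these markers in the changes of the PIP genes was not tested.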

How the data were processed

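Flag leaf RNA of 3 OsRUS1-OX and 3 WT libraries was sequenced by the authors as read pairs. The authors aligned the filtered reads to the Ensembl Plants rice genome with TopHat2 2.0.12 and counted reads per gene with HTSeq 0.6.1, and the deposited counts are raw whole numbers. From these counts and the gene lengths the authors derived the deposited FPKM values, from uniquely mapped reads. How the counting treated strand and overlapping genes is not given in the sources used here.

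Counts were tested in R 4.3.3 with edgeR 4.0.16 (TMM, filterByExpr by genotype, quasi-likelihood test). The SE given with edgeR's log2 fold changes was derived as the absolute log2 fold change over the square root of the test's F statistic. P-values of 19694 features were adjusted by the Benjamini-Hochberg method, and those with an adjusted p below 0.05 were called. Because the DESeq release of the study was not installed, DESeq2 1.42.0 served as an alternative, beside limma 3.58.1 on log2 FPKM with pseudocounts of 1 and 0.1, other scalings and filters, a minimum log2 fold change of 1 in either direction, a replicate block and fits without each library. FPKM sums, shares and ratios were formed without a test. Replicate counts differed by more than sampling noise (chi-square per degree of freedom of 8.55 to 27.9).

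The members and lists were chosen with earlier results of these data known. All 10 PIP genes were named, as were other aquaporins past the threshold, cell type markers and some genes near a member by RAP number. Of 33 aquaporin names, 29 were found in RefSeq (assembly ASM3414082v1) on the chromosome given by the identifier, all 10 PIPs among them. Because the build differs, it served for names and the order of neighbouring genes, and none of its coordinates are given. One listed NIP identifier was dropped, since the gene table of the study gives its name to another identifier. Names are spelled with a hyphen as in that table. No sequences were used here.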

Additional observations from a re-analysis of the deposited data

How the results depend on the processing

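No PIP gene changed the sign of its log2 fold change in the 126 combinations of a gene and an alternative. In 103 of them it also kept its side of the threshold, in 18 a call was lost and in 5 a call was gained. The 126 leave out the minimum log2 fold change of 1, under which PIP1-2 lost its call. PIP2-4 and PIP2-6 do not enter them at 10 counts per library. Of the PIP genes, 5 were called as reported, and 3 with limma on log2(FPKM + 0.1), with limma on log2(FPKM + 1) without a filter and with at least 10 counts required in every library, where PIP2-4 and PIP2-6 were no longer tested. The count was 1 to 6 when 1 library was left out: 1 without OsRUS1-OX replicate 2, 2 without OsRUS1-OX replicate 3, 2 without WT replicate 1 and 6 without WT replicate 2. Of the other aquaporins, 3 were called as reported, 5 with DESeq2, 1 where the log2 fold change also had to reach 1 in size, and 2 to 4 with 1 library left out. Of all features, 4644 were called as reported, 2477 where it had to reach 1 in size, and 2399 (without OsRUS1-OX replicate 3) to 5219 with 1 library left out. With library totals alone, the median log2 fold change moved by 0.07, and 2678 features were called higher and 1879 lower, against 2328 and 2316 as reported. The log2 ratio of the PIP sums stayed between 0.32 and 0.58. The log2 fold change of NIP2-2 (-0.01 as reported) was 0.06 with library totals alone, 0.00 with DESeq2, 0.04 with all 3 limma fits, 0.02 without a filter, 0.01 with at least 10 counts and -0.21 to 0.12 in fits without 1 library, and NIP3-1 (0.08 as reported) was between -0.06 and 0.26 in such fits. The causes were not tested.

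The replicate numbers of the genotypes do not mark shared plants, and whether they mark a shared collection is not given in the sources used here. The deviations of libraries with the same number correlated at 0.125, -0.091 and 0.112, and the numbers were not taken as pairs. OsRUS1-OX replicate 2 correlated best with WT replicate 3 (0.17). With the replicate block, 4013 of all features, 3 other aquaporins and 5 PIP genes were called. In edgeR's test with the block, adjusted p was 0.0055 for PIP1-3, 0.024 for PIP1-2 and 0.0023 for PIP2-6. For PIP1-1 it was 0.034 and for PIP2-4 0.047. An alternative added after seeing the data, CPM in place of FPKM, gave a log2 ratio of PIP1-1 to PIP2-1 in WT of 0.07, in place of -0.56.

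The leaf state, the single transgenic line and the small number of libraries limit each comparison. PIP2-3, PIP2-4 and PIP2-5 rest on at most 34 reads per library.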

Other observations

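Neighbours of a member were taken by closeness of their RAP numbers, and not all of them are given. The RAP identifier next to PIP1-1, OS02G0666250, had 57, 94 and 92 reads in OsRUS1-OX, against 30, 25 and 46 reads in WT (log2 fold change 0.89, adjusted p = 0.087, edgeR's quasi-likelihood test). OS02G0666300, also near PIP1-1, had normalized counts that did not overlap (log2 fold change 0.37, adjusted p = 0.071, edgeR's quasi-likelihood test). Near PIP1-2, OS04G0559750 had at most 19 reads per library and was not tested. OS04G0559800 beyond it had 1050, 967 and 1125 reads in OsRUS1-OX, against 753, 742 and 959 reads in WT, from smaller libraries. Its normalized counts were 900, 939 and 942 in OsRUS1-OX, against 1060, 778 and 1014 in WT, and overlapped (log2 fold change -0.04, adjusted p = 0.88, edgeR's quasi-likelihood test). Near PIP1-3, OS02G0823050 had at most 5 reads per library and was not tested. OS02G0823000 beyond it had 119, 79 and 89 reads in OsRUS1-OX, against 42, 183 and 73 reads in WT. The normalized counts of OS02G0823000 overlapped between the genotypes. Next to PIP2-7, OS09G0540900 had 213, 144 and 199 reads in OsRUS1-OX, against 154, 148 and 165 reads in WT, and its normalized counts overlapped as well. Strand was not stated for the counting, so reads of overlapping neighbours cannot be told apart.

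The identifier to which the gene table of the study gives the name NIP1-3, OS05G0205050, had 73, 128 and 118 reads in OsRUS1-OX, against 23, 19 and 52 reads in WT. The identifier dropped from the list, OS05G0205000, had 39, 38 and 43 reads in OsRUS1-OX, against 6, 12 and 17 reads in WT. Both were higher in OsRUS1-OX by edgeR's quasi-likelihood test, with log2 fold changes of 1.40 (adjusted p = 0.039) and 1.41 (adjusted p = 0.016). OS05G0205050 was called in 2 of the 6 fits without 1 library, and not without OsRUS1-OX replicate 2 or 3 or WT replicate 1 or 2, with adjusted p up to 0.13 in edgeR's test. OS05G0205000 was called in 4 of these 6 fits, and not without OsRUS1-OX replicate 2 or 3, with adjusted p up to 0.066 in edgeR's test. They were singled out after their values were seen.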
